A study of Homo sapiens with 4 samples.

Results

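The genes of the DNA replication machinery were examined in PANC-1, a cell line of human pancreatic ductal adenocarcinoma, and in PZT-2, a clone made from it by knockdown of the histone variant H2A.Z. The 50 members were taken by gene symbol from the names that the deposited tables give to transcripts, and their values were summed over the transcripts of each gene. All 50 passed the filter on low counts, out of 15101 genes tested. They were grouped by role into origin licensing (9 genes), helicase (15), polymerase (12) and clamp and lagging strand (12), and TIPIN and CLSPN, which belong to none of these, were kept as fork protection factors. The label was checked against the data, and every subunit of the origin recognition complex, the MCM2-7 ring, the GINS complex and the replicative polymerases was detected in every library.

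The study asked which genes change their expression when H2A.Z is depleted. The data were 4 stranded mRNA libraries, 2 of PANC-1 and 2 of PZT-2, grown in the same medium at the same passages, with no drug and at no series of times. PANC-1 was the parental line and carried no hairpin vector. PZT-2 carried lentiviral short hairpins, driven by the U6 promoter, against H2A.Z.1 (gene H2AFZ) and H2A.Z.2 (gene H2AFV), with puromycin selection. It is 1 selected clone, so the knockdown, the vector, the selection and the clone's own history cannot be told apart in these libraries. The study also sequenced cells with a scrambled hairpin and reported that similar genes differed between them and PZT-2. It measured some genes by RT-qPCR in a further knockdown clone, PZT-1. Neither of these is among the libraries used here. The methods call the libraries of a line biological replicates, and no source used here says whether they came from separate cultures, so the p-values measure the spread between these libraries. Counts recovered per library came to between 12861335 and 15717457 estimated counts.

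The labels held for the targeted genes. H2AFZ had 6386 and 6031 normalised counts in PANC-1 and 2211 and 2258 in PZT-2, where a normalised count is an estimated count scaled to the mean library. Its log2 fold change was -1.47 ± 0.06 (SE of the fit, n = 2 and 2; adjusted p = 6.23e-05 by edgeR's quasi-likelihood test, the test of every adjusted p given here unless another is named). H2AFV fell by 0.36 on the log2 scale (SE 0.06, adjusted p = 0.00573). Of 9 markers of pancreatic ductal epithelium 8 were tested. The list's summed level was 7370 and 7512 TPM (relative abundance, a level per length) in PANC-1 and 4183 and 4085 TPM in PZT-2. Nearly all of it came from KRT8, KRT18 and KRT19, which were abundant in all 4 libraries. KRT7 had only 11.005 and 9.05 TPM in PANC-1 and 8.44 and 8.79 TPM in PZT-2. EPCAM had 7.99 and 8.44 TPM in PANC-1 and 8.401 and 6.75 TPM in PZT-2. Neither KRT7 nor EPCAM was called. The 5 markers called lower were KRT8 (log2 fold change -1.17), KRT18 (-0.81), KRT19 (-0.73), MUC1 (-0.51) and CDH1, which had 3.03 and 4.001 TPM in PANC-1 and 0 and 0.53 TPM in PZT-2, and 1 marker, SOX9, was called higher (0.25). None of 6 acinar markers was listed, and the sums of the fibroblast markers (3 of 6 tested) were 6.23 to 14.6 TPM, those of the immune markers (2 of 5 tested, nearly all from CD68) 117 to 131 TPM and those of the endothelial markers (1 of 4 tested) 0.0804 to 0.236 TPM. COL1A1 fell by 1.75 on the log2 scale, and CD14 had 3.37 and 0 normalised counts in PANC-1 and 16.1 and 31.6 in PZT-2.

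Replication of the genome begins with licensing, in which the origin recognition complex, CDC6 and CDT1 load the MCM2-7 ring onto DNA as an inactive double ring. At the start of S phase, kinases and further factors turn each ring into the active helicase by adding CDC45 and the GINS complex, polymerase alpha lays down primers, polymerases delta and epsilon extend them, and the PCNA clamp, which the RFC complex loads, holds the polymerases on DNA. Most of these genes are known targets of E2F transcription factors and are expressed most in late G1 and S phase, so their RNA level in a bulk culture depends on how many cells are dividing as well as on the level in each cell.

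The share of replication genes called in PZT-2 was near that of all genes tested, with changes in both directions and by small steps. Of the 50 members, 15 (30%) passed the test, against 28.4% of all genes tested. The background depended on the filter. With at least 10 counts in all 4 libraries, 30% of the members were called, against 35.9% of 12734 genes. Those called higher in PZT-2 were 7, CDC6, MCM2, MCM4, PRIM2, RFC4, RPA1 and TIPIN, against a background of 14.7% of genes. Those called lower were 8, MCM5, MCM7, RECQL4, POLA1, POLA2, POLD2, POLE3 and RPA3, against 13.7% of genes. The median log2 fold change of the members was 0.0011 and that of all genes 0.0012, and the median size of a change without its sign was 0.172 for the members and 0.279 for all genes. These sizes are not of equal precision, as the median standard error was 0.0872 for the members and 0.121 for all genes. No member reached a 2-fold change, which 1392 of the genes tested did. The libraries of the cell lines did not overlap for 32 of the members (64%), against 66.3% of all genes, and 17 of these members lay higher in PZT-2 and 15 lower. In a bulk culture a change in the share of cells in S phase and a change in RNA per cell cannot be told apart.

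The count of calls depended on which libraries were used. Without PZT-2 replicate 1 there were 3 calls (CDC6, MCM2 and POLA1), beside 15.6% of all genes. Without PZT-2 replicate 2 edgeR made none among the members, where 16 had an unadjusted p under 0.05 and the lowest adjusted p was 0.0567, beside 12.6% of all genes called; the DESeq2 test of all 4 libraries made 11 calls, beside 21.3% of all genes. Without PANC-1 replicate 2 there were 11 members called higher and 8 lower (38% of members, 31.5% of all genes), and without PANC-1 replicate 1 there were 6 higher and 10 lower (32% of members, 31.6% of all genes). In the test of log2(TPM + 1) the split was 7 higher and 5 lower (24% of members, 25.3% of all genes). With any of the 4 libraries left out, the 15 called members kept their direction. Their libraries did not overlap between the cell lines, so this outcome was all but fixed beforehand and adds no support.

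**Figure D1:**
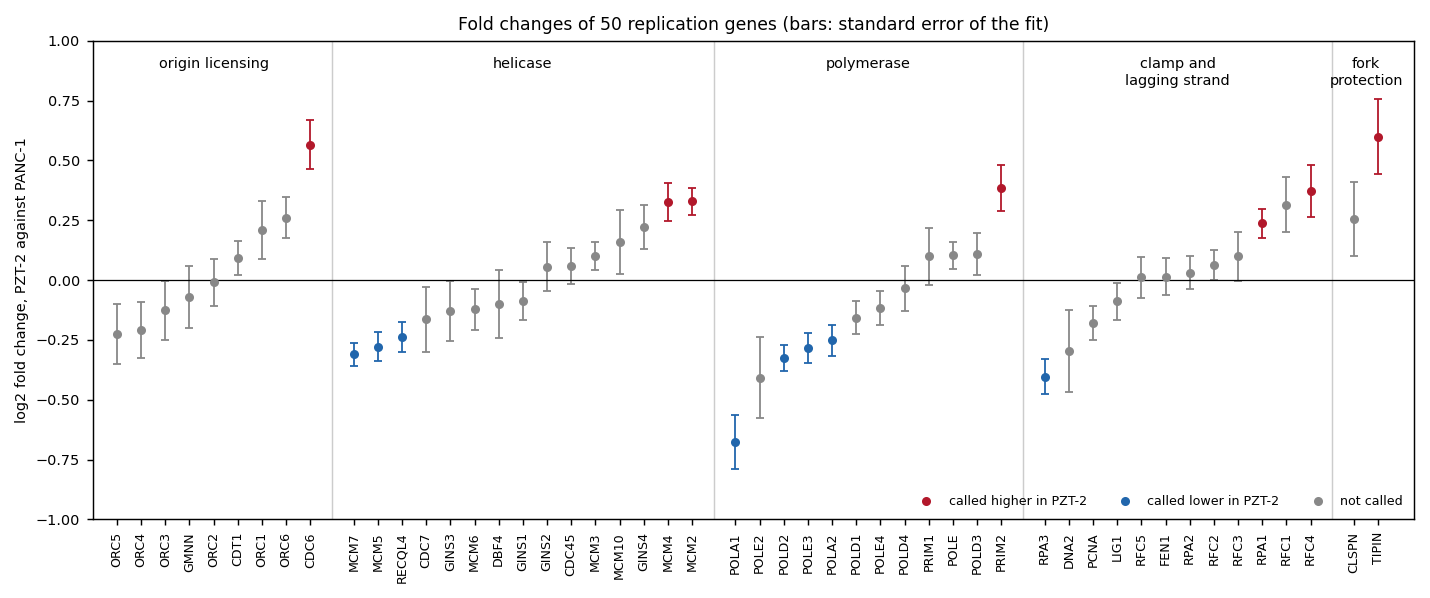
Log2 fold change of PZT-2 against PANC-1 (vertical axis) for the 50 members, grouped by role and ordered within each group, with bars of 1 standard error of the edgeR fit. The 7 members called higher reach from 0.24 (RPA1) to 0.60 (TIPIN), the 8 called lower from -0.24 (RECQL4) to -0.68 (POLA1), and the other 35 lie on both sides of 0.

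The promoters of some of the called members are shown first, because E2F control is the best known trait these genes share and the rule that chose the members did not use it. Each window comes from RefSeq on GRCh38.p14, holds 300 bases from 250 before the annotated start of transcription to 50 after it, and is written 5′ to 3′ on the strand of its gene. Capitals mark matches to E2F-type letters, TTCCCGC or TTCGCGC or TTGCCGC or TTGGCGC on either strand, and capitals that run on hold overlapping matches. The first 3 genes were called higher and the last 3 lower. Where a gene had several windows, the one with the most E2F-type matches is shown. MCM7 had others, with 0 and 2 matches. They lie at chr3:127598161-127598460 on the plus strand (MCM2), chr17:40287629-40287928 on the plus strand (CDC6), chr3:186806433-186806732 on the minus strand (RFC4), chr7:100101348-100101647 on the minus strand (MCM7), chrX:24693668-24693967 on the plus strand (POLA1) and chr7:44123499-44123798 on the minus strand (POLD2).
MCM2: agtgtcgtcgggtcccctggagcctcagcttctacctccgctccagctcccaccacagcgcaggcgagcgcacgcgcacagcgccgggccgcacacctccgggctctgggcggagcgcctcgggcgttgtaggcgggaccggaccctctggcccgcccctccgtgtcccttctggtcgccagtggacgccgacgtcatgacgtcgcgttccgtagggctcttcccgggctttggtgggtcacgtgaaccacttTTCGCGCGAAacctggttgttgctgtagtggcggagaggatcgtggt
CDC6: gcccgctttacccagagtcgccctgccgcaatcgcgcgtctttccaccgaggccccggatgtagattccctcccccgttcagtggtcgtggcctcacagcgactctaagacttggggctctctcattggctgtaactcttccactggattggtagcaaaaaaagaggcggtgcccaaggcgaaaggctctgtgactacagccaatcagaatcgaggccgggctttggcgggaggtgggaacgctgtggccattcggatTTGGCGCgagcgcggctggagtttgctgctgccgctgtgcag
RFC4: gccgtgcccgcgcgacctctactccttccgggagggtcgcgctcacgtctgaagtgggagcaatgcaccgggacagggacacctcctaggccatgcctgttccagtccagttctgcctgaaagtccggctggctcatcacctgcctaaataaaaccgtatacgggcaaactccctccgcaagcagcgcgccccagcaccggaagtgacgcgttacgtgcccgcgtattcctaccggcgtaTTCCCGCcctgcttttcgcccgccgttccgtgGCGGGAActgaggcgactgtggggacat
MCM7: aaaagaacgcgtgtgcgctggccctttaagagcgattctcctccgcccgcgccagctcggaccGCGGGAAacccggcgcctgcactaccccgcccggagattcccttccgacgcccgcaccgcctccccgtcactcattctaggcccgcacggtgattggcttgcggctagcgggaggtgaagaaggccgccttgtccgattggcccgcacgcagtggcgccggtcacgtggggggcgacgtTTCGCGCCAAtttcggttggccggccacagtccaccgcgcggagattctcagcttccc
POLA1: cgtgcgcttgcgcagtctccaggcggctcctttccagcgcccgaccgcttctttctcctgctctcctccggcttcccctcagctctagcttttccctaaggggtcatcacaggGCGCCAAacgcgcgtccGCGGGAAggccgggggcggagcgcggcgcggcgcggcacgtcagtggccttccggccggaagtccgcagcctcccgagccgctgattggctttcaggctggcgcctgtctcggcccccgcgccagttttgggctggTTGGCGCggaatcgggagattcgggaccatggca
POLD2: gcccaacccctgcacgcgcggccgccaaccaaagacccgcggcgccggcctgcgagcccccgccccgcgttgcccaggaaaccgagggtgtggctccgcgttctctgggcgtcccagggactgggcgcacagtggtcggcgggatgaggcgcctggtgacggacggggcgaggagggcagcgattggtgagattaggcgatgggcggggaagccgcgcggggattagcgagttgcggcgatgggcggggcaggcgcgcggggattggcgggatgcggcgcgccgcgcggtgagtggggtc

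Some matches in these windows, picked for their matches, stood close to the start of transcription in genes of both directions. Counted from the start base, with bases before it negative, overlapping matches in MCM2, called higher, began at 3 and 6, and a match in CDC6 began at 8. In RFC4 matches began at -10 and 22. In MCM7, called lower, overlapping matches began at -8 and -5 and another at -187, and in POLA1 matches began at -137, -120 and 16. POLD2 had no match to these letters in its window, which says only that these letters are not in it. Of the 50 members 42 had a window, and 30 of them (71.4%) held at least 1 E2F-type match, against 24.0% of the tested genes with a window and 15.3% of all genes in the promoter table. Matches were found in 5 of the 6 members called higher that had a window and in 4 of the 5 called lower. The median log2 fold change was 0.03 for the 30 members with a match and -0.02 for the 12 without, and -0.02 and 0.01 for tested genes with and without a match, so that genes with these letters and genes without them sat at about the same median. The CCAAT letters, which the factor NF-Y is known to bind, were found on either strand in 59.5% of the members and 42.0% of tested genes, and TTTGAA, the letters of the CHR element of many mitotic genes, in 4.76% of the members (DBF4 and POLE3) and 13% of tested genes.

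Origin licensing gave 1 call among 9 genes. CDC6 is the ATPase that joins the origin recognition complex and helps to load the MCM ring, and it had 911 and 1062 normalised counts in PANC-1 and 1357 and 1567 in PZT-2. Both PZT-2 libraries were above both PANC-1 libraries, and the difference, 0.56 ± 0.10 on the log2 scale, was called (adjusted p = 0.00894). Its partner CDT1 had a log2 fold change of 0.09 and was not called (adjusted p = 0.387), with 754 and 784 normalised counts in PANC-1 and 795 and 846 in PZT-2. In level per length the ratio of CDC6 to CDT1 was 0.710 and 0.794 in PANC-1 and 1.00 and 1.08 in PZT-2. GMNN, the gene of geminin, the inhibitor of CDT1, had a log2 fold change of -0.07 with overlapping libraries.

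With all 4 libraries, none of the 6 subunits of the origin recognition complex was called by edgeR or DESeq2, and 1, ORC6, had an unadjusted p under 0.05. ORC6, the smallest subunit, came closest, with 314 and 315 normalised counts in PANC-1 and 374 and 380 in PZT-2. The difference of 0.26 ± 0.09 on the log2 scale had an adjusted p of 0.0675, and it passed in the tests of log2 TPM. In those tests the median over all genes also lay above 0, at 0.0450 and 0.0572. ORC1, the subunit that comes and goes with the cell cycle, had a log2 fold change of 0.21 (385 and 487 normalised counts against 507 and 504; adjusted p = 0.252). Without PANC-1 replicate 2 the value for ORC1 was 0.39 and was called (adjusted p = 0.0224), and without PANC-1 replicate 1 it was 0.05 (adjusted p = 0.769). ORC2 stood at -0.01, ORC3 at -0.13, ORC4 at -0.21 and ORC5 at -0.23, none called. The summed level of the complex was 104 and 118 TPM in PANC-1 and 117 and 119 TPM in PZT-2.

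The MCM2-7 ring, the motor of the replicative helicase, had called subunits in opposite directions, 2 higher and 2 lower, while its summed level stayed within 809 and 889 TPM in PANC-1 and 874 and 885 TPM in PZT-2. MCM2, the subunit that also binds histones, had 4115 and 4369 normalised counts in PANC-1 and 5253 and 5408 in PZT-2. All of the PZT-2 values lay above the PANC-1 values (log2 fold change 0.33 ± 0.06, adjusted p = 0.00682). MCM4, whose tail is a target of the DDK kinase, had 2895 and 3374 normalised counts in PANC-1 and 3900 and 3972 in PZT-2 (0.33 ± 0.08, adjusted p = 0.0250). PANC-1 replicate 1 was the lowest library for MCM4, 0.22 on the log2 scale below PANC-1 replicate 2.

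MCM7 and MCM5 went the other way. MCM7, a core subunit whose introns hold a microRNA cluster, had 5987 and 6087 normalised counts in PANC-1 and 4843 and 4900 in PZT-2. The pairs were narrow and far apart (log2 fold change -0.31 ± 0.05, adjusted p = 0.00522, the lowest among the members). MCM5, which with MCM2 forms the gate through which the ring opens, had 2443 and 2578 normalised counts in PANC-1 and 2021 and 2120 in PZT-2 (-0.28 ± 0.06, adjusted p = 0.0176). MCM3 (log2 fold change 0.10) and MCM6 (-0.12) were not called in the fit of all 4 libraries, and MCM6 was called lower without PANC-1 replicate 1 (adjusted p = 0.0147).

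Because the subunits moved apart, their balance per length differed between the cell lines. In each library MCM7 had the highest level of the ring, 256 and 268 TPM in PANC-1 and 219 and 220 TPM in PZT-2, and MCM6 the lowest, 51.3 and 62.1 TPM and 54.7 and 53.5 TPM. The ratio of MCM2 to MCM7 was 0.590 and 0.616 in PANC-1 and 0.931 and 0.948 in PZT-2, so that the level of MCM2 came near that of MCM7 in PZT-2. MCM4 to MCM7 went from 0.355 and 0.407 to 0.592 and 0.596, and MCM2 to MCM5 from 1.21 and 1.22 to 1.87 and 1.84. For these 3 ratios the libraries of the cell lines did not overlap, and no test was made of the ratios. Each ratio pairs subunits called in opposite directions, so this separation follows from the calls and adds nothing to them. MCM5 had a higher level than MCM4 in PANC-1 and a lower one in PZT-2. As shares of the ring's summed level, MCM7 made up 31.7% and 30.2% in PANC-1 and 25.1% and 24.9% in PZT-2, MCM2 18.7% and 18.6% against 23.4% and 23.6%, and MCM6 6.34% and 6.99% against 6.26% and 6.04%.

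The other helicase genes gave 1 call. RECQL4, a helicase of the RecQ family that takes part in starting replication, had 1227 and 1193 normalised counts in PANC-1 and 1002 and 1049 in PZT-2. Its PZT-2 values lay below both PANC-1 values (log2 fold change -0.24 ± 0.06, adjusted p = 0.0334). MCM10, which helps to activate the helicase, had a log2 fold change of 0.16 with overlapping libraries (350 and 458 normalised counts against 464 and 443), and the call of MCM10 made without PANC-1 replicate 2 had an adjusted p of 0.0339. CDC45, the cofactor that travels with the active helicase, stood at 0.06. None of the 4 GINS genes was called with all 4 libraries by edgeR or DESeq2, and 1, GINS4, had an unadjusted p under 0.05, with log2 fold changes of -0.09 for GINS1, 0.06 for GINS2, -0.13 for GINS3 and 0.22 for GINS4 (adjusted p = 0.122). CDC7 and DBF4, the catalytic and regulatory subunits of the kinase that fires origins, stood at -0.16 and -0.10, both with overlapping libraries.

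The polymerase group gave 5 calls among 12 genes, 1 higher and 4 lower, and polymerase alpha-primase, which starts every new strand, held 3 of them. POLA1, its catalytic subunit, had 254 and 275 normalised counts in PANC-1 and 172 and 159 in PZT-2. Neither pair came near the other, and the log2 fold change of -0.68 ± 0.11 (adjusted p = 0.0070) was the largest of any member. POLA2, its regulatory subunit, had 1333 and 1421 normalised counts in PANC-1 and 1173 and 1142 in PZT-2 (-0.25 ± 0.06, adjusted p = 0.0297). PRIM2, the large primase subunit, had 603 and 719 normalised counts in PANC-1 and 847 and 883 in PZT-2 and was called higher (0.38 ± 0.10, adjusted p = 0.0285). PRIM1, the catalytic primase subunit, stood at 0.10 with overlapping libraries. The human genome holds near-identical partial copies of PRIM2, so that its counts are less certain than those of the others.

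Subunit levels within polymerase alpha-primase were unequal in each library. POLA1 had the lowest level of the 50 members averaged over the libraries, 5.84 and 6.55 TPM in PANC-1 and 4.18 and 3.88 TPM in PZT-2, beside 46.9 and 51.5 TPM and 43.7 and 42.2 TPM for POLA2. The ratio of PRIM2 to POLA1, a pair called in opposite directions, was 5.86 and 6.43 in PANC-1 and 12.2 and 13.6 in PZT-2, which follows from their calls. The sum over the complex was 114 and 134 TPM in PANC-1 and 131 and 134 TPM in PZT-2. Of that sum POLA2 made up 41.2% and 38.5% in PANC-1 and 33.2% and 31.5% in PZT-2, and PRIM2 30.0% and 31.5% in PANC-1 and 38.8% and 39.4% in PZT-2, so that PRIM2 took the first place from POLA2.

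Polymerases delta and epsilon, which copy the lagging and the leading strand, gave 1 call each, both of accessory subunits. POLD2, the subunit that bridges the catalytic and the other subunits of polymerase delta, had 2806 and 2731 normalised counts in PANC-1 and 2211 and 2202 in PZT-2. The PZT-2 values were close together and lay below PANC-1 (log2 fold change -0.33 ± 0.05, adjusted p = 0.00660). POLE3, a histone-fold subunit of polymerase epsilon, had 1887 and 1768 normalised counts in PANC-1 and 1493 and 1509 in PZT-2 (-0.28 ± 0.06, adjusted p = 0.0178). The catalytic subunits POLD1 (log2 fold change -0.16, adjusted p = 0.132) and POLE (0.10, adjusted p = 0.221) were not called, nor were POLD3 (0.11), POLD4 (-0.03) and POLE4 (-0.12). POLE2, the accessory subunit of polymerase epsilon, had the largest change of any uncalled member, with 169 and 198 normalised counts in PANC-1 and 121 and 156 in PZT-2 (-0.41 ± 0.17, adjusted p = 0.121). Of the polymerase genes called, POLA2 and POLD2, and RECQL4 among the helicases, were also picked by the study from these same libraries, so their calls are not independent evidence of their direction. The summed level of polymerase delta was 393 and 384 TPM in PANC-1 and 346 and 351 TPM in PZT-2, with POLD2 at 57.8% and 59.1% of it in PANC-1 and 54.5% and 52.9% in PZT-2. That of polymerase epsilon was 355 and 361 TPM against 329 and 344 TPM, with POLE4 the most abundant subunit in each library.

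**Figure D2:**
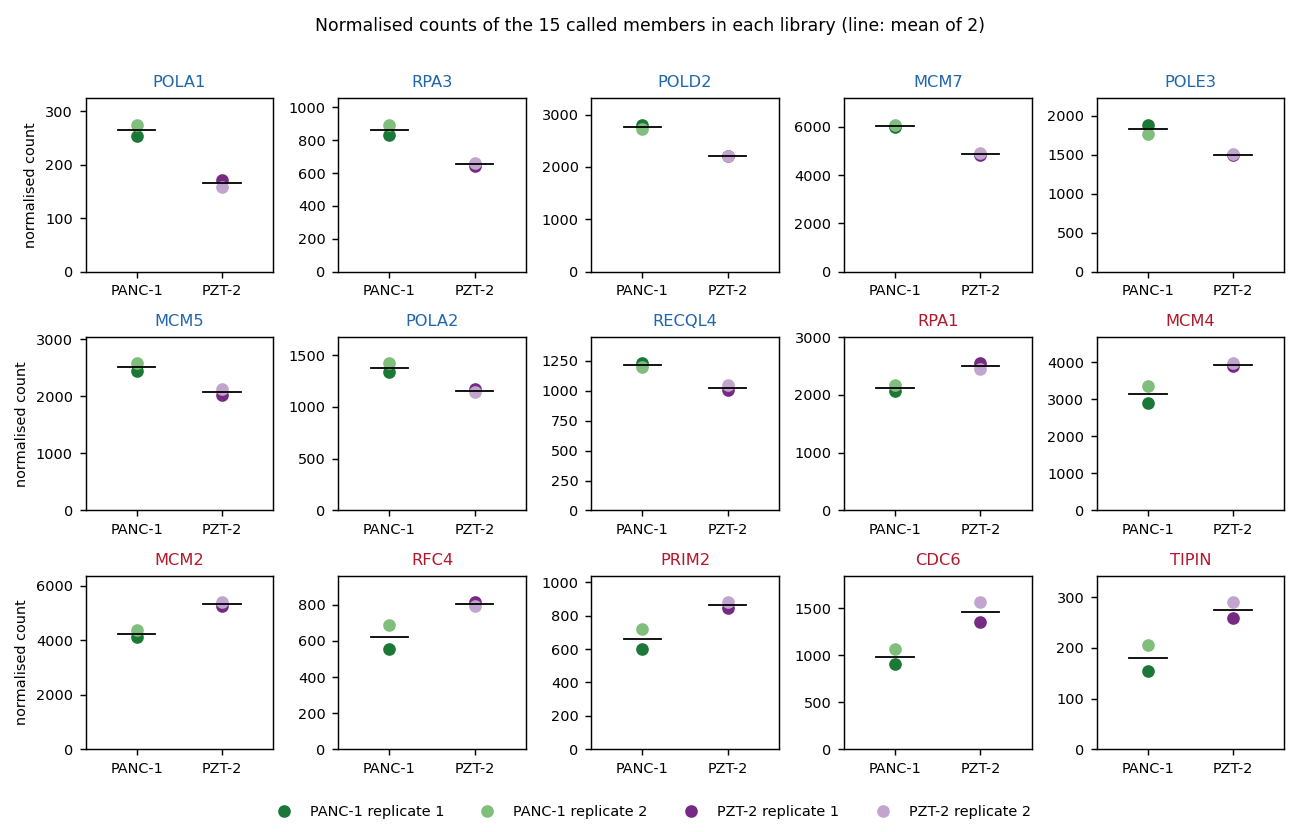
Normalised counts (vertical axes, each starting at 0) of the 15 called members in each library, with a line at the mean of the 2 libraries of a cell line. Titles in blue mark the 8 members lower in PZT-2 and titles in red the 7 higher, and in every panel the pairs do not overlap.

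Among the clamp and lagging strand genes 3 of 12 were called. RPA1, the large subunit of the single-strand binding complex, had 2066 and 2173 normalised counts in PANC-1 and 2545 and 2452 in PZT-2, a difference of 0.24 ± 0.06 on the log2 scale (adjusted p = 0.0276). RPA3, the smallest subunit of the same complex, had 831 and 894 normalised counts in PANC-1 and 646 and 659 in PZT-2 (-0.40 ± 0.07, adjusted p = 0.00891). So RPA1 lay higher and RPA3 lower in both PZT-2 libraries, and the ratio of RPA1 to RPA3 in level per length was 1.08 and 1.05 in PANC-1 and 1.70 and 1.604 in PZT-2. The shift of this ratio follows from the opposite calls and adds nothing to them. RPA2, the middle subunit, stood at 0.03, and the sum over the 3 subunits was 202 and 214 TPM in PANC-1 and 213 and 216 TPM in PZT-2.

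PCNA, the sliding clamp, had the highest level of the 50 members averaged over the libraries, 251.3 and 292.7 TPM in PANC-1 and 248.0 and 251.7 TPM in PZT-2. Its log2 fold change of -0.18 was not called (adjusted p = 0.114) but was called without PANC-1 replicate 1 (adjusted p = 0.00504). The 5 subunits of RFC, the clamp loader, all had positive log2 fold changes and gave 1 call. RFC4 had 554 and 687 normalised counts in PANC-1 and 816 and 795 in PZT-2. Both PZT-2 libraries were higher (0.37 ± 0.11, adjusted p = 0.0459), although the PANC-1 libraries differed from each other by more than the gap between the pairs. RFC1, the large subunit, had 363 and 447 normalised counts in PANC-1 and 511 and 501 in PZT-2 (0.32 ± 0.11, adjusted p = 0.0841) and was not called, though without PANC-1 replicate 2 it was (adjusted p = 0.00877). RFC2 stood at 0.06, RFC3 at 0.10 and RFC5 at 0.01. The sign of RFC5 was not stable, as its log2 fold change ranged from -0.06 to 0.07 with a library left out. The summed level of the clamp loader was 197 and 218 TPM in PANC-1 and 244 and 242 TPM in PZT-2, without overlap, and RFC4 made up 26.9% and 31.2% of it in PANC-1 and 34.0% and 33.3% in PZT-2. The genes that finish Okazaki fragments were not called, with FEN1 (the flap nuclease) at 0.01, LIG1 (the ligase) at -0.09 and DNA2 (a nuclease and helicase) at -0.30 ± 0.17 with overlapping libraries (adjusted p = 0.249). After POLE2, RFC1 and DNA2 had the largest changes among uncalled members.

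TIPIN, which with TIMELESS holds the helicase and polymerase together, had 155 and 206 normalised counts in PANC-1 and 260 and 291 in PZT-2. The pairs did not overlap (log2 fold change 0.60 ± 0.16, adjusted p = 0.0320). TIMELESS, which is not a member, was called in the other direction (-0.30 ± 0.06, adjusted p = 0.0101). CLSPN, the gene of claspin, a mediator of the replication checkpoint, had 523 and 733 normalised counts in PANC-1 and 796 and 711 in PZT-2, and was not called (0.26 ± 0.16, adjusted p = 0.275). Without PANC-1 replicate 2, the PANC-1 library with the higher value, it was called (adjusted p = 0.00435).

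Other tests of the same 4 libraries dropped some of these calls. DESeq2 did not call POLA2, RECQL4, RFC4 and TIPIN, the test of log2(TPM + 1) did not call MCM5, POLA2, RECQL4 and RFC4, and the counts as deposited did not call RFC4. MCM2 and CDC6 kept their calls in 12 of 13 other fits, MCM7, POLA1, POLD2 and RPA3 in 11, and RFC4 in 4.

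The PANC-1 libraries differed from each other across the members. PANC-1 replicate 2 was higher than replicate 1 in 41 of the 50 members, with a median log2 ratio of 0.10, while over all genes tested it was higher in 50.04%, with a median of 0.0003, and in 49.7% of the genes with a mean count of at least 100. All 9 licensing genes and 13 of 15 helicase genes were higher in replicate 2, and CLSPN (0.49), TIPIN (0.41), MCM10 (0.39), GMNN (0.36), DBF4 (0.35) and ORC1 (0.34) had the largest log2 ratios. The same held for 19 of 24 other replication factors and 17 of 20 G2/M genes, and for 4 of 9 genes of nucleotide supply. In PZT-2, replicate 2 was higher in 30 of the 50 members, with a median of 0.02. All 7 members called higher in PZT-2 were lower in PANC-1 replicate 1 than in replicate 2, and so were 5 of the 8 called lower. The median log2 fold change of the members was -0.04 without PANC-1 replicate 1 and 0.07 without PANC-1 replicate 2. The part of this difference between the PANC-1 libraries in the calls was not tested.

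**Figure D3:**
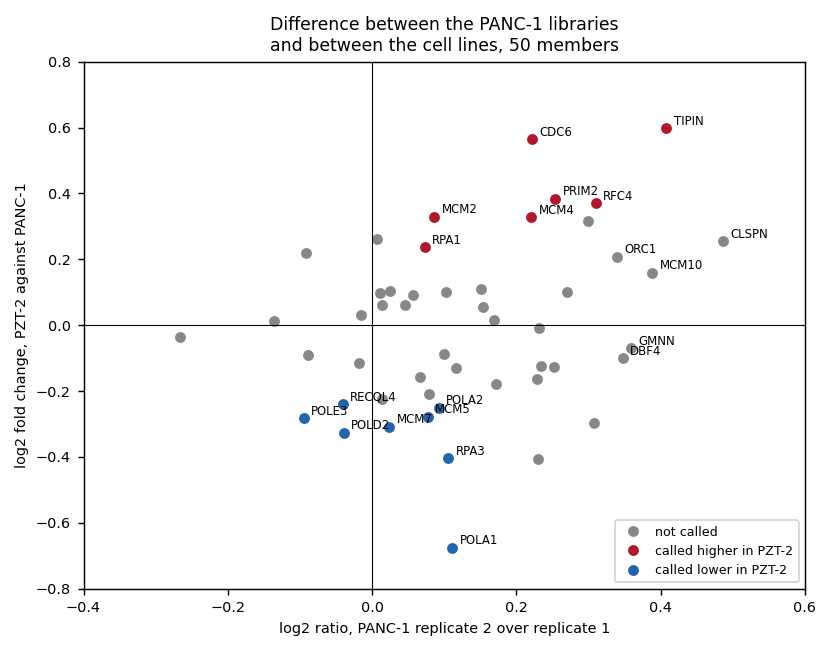
Log2 ratio of PANC-1 replicate 2 over replicate 1 (horizontal axis) against the log2 fold change of PZT-2 over PANC-1 (vertical axis) for the 50 members. Points right of 0, which are 41 of 50, had the higher value in PANC-1 replicate 2, and the 7 red points are all among them.

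Some calls lay on chromosomes where most genes shifted in the clone. The median log2 fold change of all genes tested was 0.43 on chromosome 3, where MCM2 (0.33) and RFC4 (0.37) lie, 0.24 on chromosome 15, where TIPIN (0.60) lies, and -0.29 on chromosome X, where POLA1 (-0.68) lies. MCM2 and RFC4 thus changed less than the median gene of their chromosome, and TIPIN and POLA1 more. The nearest 50 tested genes around POLA1 had a median of 0.01, whereas those around MCM2 and RFC4 had medians of 0.47 and those around TIPIN one of 0.26. On chromosome 7, with a median of -0.09, 6 members lie, and MCM7, POLD2 and RPA3 were called lower there. CDC6 and RPA1 lie on chromosome 17 (median 0.0043), MCM4 and RECQL4 on chromosome 8 (median 0.0036), and PRIM2 on chromosome 6 (median -0.02). Of the 46 members off chromosomes 3, 15 and X, 11 were called (23.9%), 4 higher and 7 lower, against 26.4% of all genes tested off those chromosomes. The part of chromosome-wide shifts in the calls was not tested.

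Single transcripts gave less than gene sums. All 116 listed transcripts of the members were tested and edgeR called none of them, against 45 of 30403 transcripts in all (0.148%). Among the member transcripts 15 had an unadjusted p under 0.05, the lowest adjusted p was 0.0732 (the main transcript of MCM7), and DESeq2 called 12. A main transcript held at least 80% of the counts in 35 of the 50 members. In POLE3, chosen after its values were seen, the estimates swung between libraries of the same cell line. Its 2 main transcripts held 35.3% and 57.5% of its counts in PANC-1 and 80.1% and 20.3% in PZT-2 (the first), and 56.7% and 32.7% in PANC-1 and 8.49% and 69.9% in PZT-2 (the other), while the gene sum differed little within a pair. Estimates for POLA1, the member with the largest change, swung too. Of its transcripts 1 held 56.2% and 13.2% of its counts in PANC-1 and 51.5% and 0% in PZT-2. The other held 43.8% and 86.8% in PANC-1 and 48.5% and 100% in PZT-2. After their values were seen, a pair of minor transcripts was singled out. A non-coding transcript of POLD1 was listed at 0 in both PANC-1 libraries and had 55.2 and 62.1 normalised counts in PZT-2 (adjusted p = 0.0971), and a transcript of CDC45 was listed at 0 in PANC-1 and had 11.05 and 9.86 in PZT-2 (adjusted p = 0.143). EdgeR called neither of them, and DESeq2 called the POLD1 transcript (adjusted p = 2.28e-05) but not that of CDC45 (adjusted p = 0.0750).

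Other genes overlap the called members on the opposite strand, and no source used here says whether strand was used in counting. Such partners with a fold change of their own were TPRA1 at MCM2 (log2 fold change 0.49), AP4M1 at MCM7 (-0.37), C9orf43 at POLE3 (-0.50), EIF4A2 at RFC4 (1.15), SMYD4 at RPA1 (0.27) and UMAD1 at RPA3 (-0.31). All 6 had the sign of the member they overlap. MIR25 lies inside MCM7 on the same strand and stood at -0.42. Their part in the members' values was not tested. POLD2, PCNA, RFC3, RFC5, RPA2, FEN1 and DBF4 have annotated pseudogenes that could share reads.

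Genes around the replication machinery, from lists made with earlier results of these data known, gave the following. Of 24 other replication factors, 1 was called higher and 5 lower, among them RNASEH2B and RNASEH2C, subunits of the ribonuclease that removes ribonucleotides from DNA, which fell by 0.53 and 0.55 on the log2 scale. Of 9 genes of nucleotide supply, 1 was called higher and 3 lower, among them DCTD (dCMP deaminase), which fell by 1.03, and RRM2B, the p53-inducible ribonucleotide reductase subunit, which fell by 0.50. Of 9 genes of replication-coupled chromatin assembly, 1 was called higher and 1 lower. Of 16 genes of a G1/S list, which holds cyclins, E2F genes and other regulators, 6 were called higher. Among these were CDC25A at 0.82, CCND1 at 0.66 and CDKN1A, the gene of a cyclin-dependent kinase inhibitor, at 0.74. The median log2 fold changes of these 4 lists, in that order, were -0.06, 0.02, 0.05 and 0.11, beside 0.0012 for all genes tested. The shares called in these lists, in the same order, were 25%, 44.4%, 22.2% and 37.5%. Over all genes tested 28.4% were called, 14.7% higher and 13.7% lower. None of these gene counts is a test of the list.

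Of the 20 genes of the G2/M list 11 were called lower and 1 higher (60% in all, against the 28.4% of all genes tested). Their median log2 fold change was -0.34, beside 0.0012 for all genes tested and 0.0011 for the replication members. This list, too, was made with earlier results of these data known. The study had already named genes of the G2/M transition as lower in these libraries. The counts are therefore no test of the list. TOP2A, the topoisomerase that separates sister chromatids, fell by 0.73, CENPE by 0.62 and CENPF by 0.57. The summed level of the list was 2462 and 2603 TPM in PANC-1 and 2144 and 2114 TPM in PZT-2, and that of the G1/S list 464 and 491 TPM against 634 and 665 TPM. The G1/S sum includes the inhibitor gene CDKN1A.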

How the data were processed

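The authors processed reads with Trim Galore 0.4.1, kallisto 0.43.0 (RefSeq transcript index; hg19 in the processing notes) and sleuth 0.29.0; use of strand is not given in the sources used here. They deposited estimated counts per transcript, each library multiplied by 1 factor (1.16, 0.935, 1.03 and 1.01), which was found from low values and undone: 41.1% to 42.8% of those between 0.5 and 30 became whole to within 0.01, against 0.915% to 2.39% before. The scaled TPM signal that the authors deposited was not tested; TPM was recomputed here from counts and effective lengths. The columns of the authors' Wald test were not used.

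Counts were rounded and summed per gene. Of 4028 transcripts with no symbol, 3925 were named by RefSeq accession, and 103 (0.0467% of counts) were left out. A gene needed 5 counts in 2 of the 4 libraries. The test was edgeR 4.0.16 in R 4.3.3, quasi-likelihood with TMM factors, two-sided, with Benjamini-Hochberg adjustment over 15101 genes. A called gene has an adjusted p under 0.05. SE is the size of the log2 fold change over the root of F. An exact permutation test could not go below p = 0.333, so none was run. Alternatives used DESeq2 1.42.0 and limma 3.58.1, and scripts were tested on simulated data. Chromosomes come from RefSeq on GRCh38.p14, overlapping genes from GENCODE on GRCh38.

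Members, groups and lists were chosen with earlier results of these data known. Named were all members, H2AFZ, H2AFV and, from other lists, called genes with an absolute log2 fold change of at least 0.5. TIMELESS was named as the partner of TIPIN. Each library's value is given for called members, and the 3 uncalled ones with the largest change are pointed out. Of the members, 8 had no promoter window.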

Additional observations from a re-analysis of the deposited data

How the results depend on the processing

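With each library left out in turn, 0 to 11 members were called higher and 0 to 10 lower, beside 1015 to 2479 and 851 to 2249 of all genes. Leaving out a library leaves 1 sample in its group, which is then assumed to vary like the other group. With the most abundant transcript of each gene alone, 3 members were called higher and 4 lower, beside 1133 and 997 genes, and with a further minimum of 1.5-fold 1 was called higher (TIPIN) and 1 lower (POLA1), beside 1020 and 786 genes. The limma-trend test of log2 TPM called 5 members lower, with 1 or with 0.1 added to TPM. The DESeq2 test called 5 members higher and 6 lower, and 12 member transcripts, and a filter of at least 10 counts in all 4 libraries gave 2 member transcripts. The cause of these differences was not tested. The members' median log2 fold change lay between -0.0394 and 0.0693 without 1 library. On TPM it was 0.0623 and 0.0645, beside 0.0450 and 0.0572 for all genes, so the scale shifted all genes upwards. The counts kept within 1.5 times with RLE size factors, no filter, the counts as deposited and DESeq2.

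The replicate numbers are not stated to pair the libraries, and the deviations of same-numbered libraries had a correlation of -0.0206. A replicate block called 5 members higher and 6 lower (dropping POLA2, RECQL4, RFC4 and RPA1), no member transcript, and 1959 and 1747 genes.

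Since their libraries did not overlap, called members could hardly change sign with a library left out, and none changed sign in any setting. Uncalled members that did, in log2 fold change, were ORC2 (0.0657 with 1 and 0.0688 with 0.1 added to TPM, 0.10 by main transcript), POLD4 (0.0139 and 0.0141, and 0.0339 by main transcript), and by main transcript ORC3 (0.0627), ORC4 (0.19), GMNN (0.15), GINS3 (0.0249), CDC7 (0.57), RFC5 (-0.0923) and LIG1 (0.0095). With a library left out, the ranges that crossed 0 were -0.12 to 0.11 for ORC2, -0.25 to 0.00155 for ORC3, -0.24 to 0.12 for GMNN, -0.0197 to 0.37 for MCM10, -0.0207 to 0.13 for GINS2, -0.26 to 0.0823 for DBF4, -0.0288 to 0.24 for PRIM1, -0.17 to 0.0969 for POLD4, -0.0647 to 0.0741 for RFC5, -0.0308 to 0.0896 for RPA2 and -0.071 to 0.0951 for FEN1. The median standard error of a member's log2 fold change was 0.0872, which limits the size of change that 2 libraries a line can show.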
